A study of Drosophila mojavensis with 172 samples.

Results

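The 100 transcripts described here were those, out of 14528 measured in whole Drosophila mojavensis, whose levels in larvae and pupae lay furthest above their levels in adult females. For each transcript a stage mean was formed as the equal-weight mean of the 4 combinations of population and diet. The margin is the lowest mean among larvae of the first, the second and the third instar, early pupae and late pupae, minus the highest mean among females aged 0, 3, 6, 10, 14, 18 and 24 days. The 100 largest margins were taken. The transcripts were thus chosen by their log2 values in larvae, pupae and adults, so their stage levels, the step into the adult and their course over adult age are a description with no test. Only diet, population and the interaction between them were tested.

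The flies were wild-type and came from Las Bocas in Sonora or from Punta Prieta in Baja California. Each population was raised in bottle cultures on media made from agria cactus or from organ pipe cactus, and for eggs the diet is the one on which the mothers were raised. RNA of 172 samples was hybridised to one-colour NimbleGen arrays, 82 from Las Bocas and 90 from Punta Prieta. Agria was the diet of 97 and organ pipe that of 75. They comprise 16 arrays of 6-hour eggs, 45 of larvae, 25 of pupae and 84 of the 7 adult ages in the margin, with 2 further arrays of 4-day females that the margin did not use. The 54 groups of population, diet and stage hold 1 to 5 arrays, and 8 of them hold 1. Adults were females and the younger stages were not sexed, so stage and sex cannot be told apart. The labels do not say that replicates were separate cultures, and the p-values refer to the spread between these arrays, part of which may be technical. In RNA of whole animals, fewer cells of a type and less RNA per cell cannot be told apart either.

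In flies with complete metamorphosis the larva feeds, grows and moults, and pulses of the steroid hormone ecdysone time the moults and the formation of the pupa. Most larval tissues are then broken down, while imaginal discs and other precursor cells form the adult body, so transcripts for growth, cuticle, muscle and nerve formation come and go in successive waves. Much of the RNA of a mature female lies in her ovaries, and the young embryo starts with RNA that the ovary loaded into the egg. The array file carries transcript identifiers only, and none of them matched the gene table at hand, so the transcripts are called by identifier and given no gene name or role.

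The arrays did not all resemble their own stage. Of the 170 arrays outside the 4-day females, 13 correlated better with the mean of another stage than with that of their own, by more than 0.05. They are 10 larval arrays, 2 late pupal arrays of Punta Prieta on agria, and 1 adult array, newly eclosed Las Bocas females on agria, replicate 4. That adult array had a correlation of 0.879 with second instar larvae and of 0.824 with its own stage. The arrays also differed in overall spread: the SD over all transcripts of an array was 1.31 to 1.62 in larvae, 1.28 to 1.67 in pupae, 1.48 to 1.77 in adults and 1.61 to 1.73 in eggs. The array medians were closer, at 10.96 to 11.48 on the log2 scale.

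The 100 transcripts averaged 12.74 ± 0.47 on the log2 scale in larvae (SD, n = 45 arrays) and 13.07 ± 0.27 in pupae (SD, n = 25). They averaged 10.17 ± 0.48 in adult females (SD, n = 84) and 10.80 ± 0.35 in eggs (SD, n = 16). The median transcript of the set ranked at percentile 79.8 of all transcripts in larvae, 85.2 in pupae, 29.2 in adults and 43.4 in eggs. In adults the ranks ran from percentile 6.4 to 61.3. These ranks set different probes side by side, and probes differ in brightness for reasons other than transcript level. No background signal is available to say whether a low transcript was silent, so the set is described as higher in larvae and pupae than in adult females, not as shut down in adults.

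**Figure D1:**
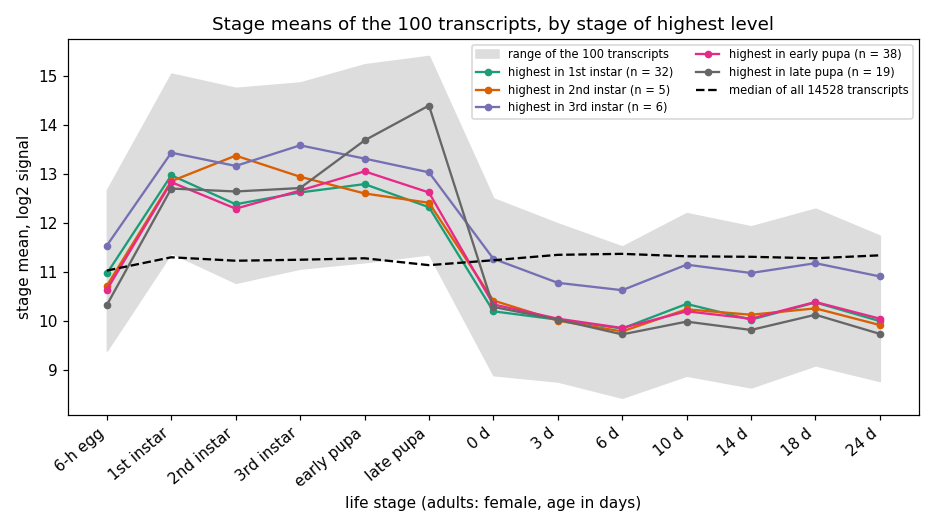
Log2 stage means of the 100 transcripts, with lines for the median of each class by stage of highest larval or pupal mean, a grey band for the range of the 100, and a dashed line for the median of all 14528 transcripts. The classes lie above the dashed line from first instar larvae to late pupae and, apart from the 6 transcripts of the third instar class in newly eclosed females, at 11.27, below it at the adult ages shown.

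The margins ran from 1.66 to 2.85 with a median of 1.83 on the log2 scale. FBtr0162622 had the largest, 2.85, a fold of 7.21 between its lowest larval or pupal mean and its highest adult mean. It was followed by FBtr0162513 at 2.50, FBtr0163392 at 2.49 and FBtr0167307 at 2.46. At the edge of the set, FBtr0175518 had a margin of 1.6606 and FBtr0168731 one of 1.6581, while FBtr0165304 at 1.6564 and FBtr0175467 at 1.6542 fell just outside. The edge marks no gap: 856 transcripts had a margin of at least 1, and 3932 of all transcripts, 27.06%, lay lower at every adult age than at every larval and pupal stage. In the opposite direction, 3652 transcripts lay higher at every adult age than at every larval and pupal stage, 320 of them by at least 1.

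FBtr0162622 ranged in larvae from 10.13 over a median of 13.56 to 14.47, and in pupae from 10.78 over 13.32 to 14.16. In adult females it ranged from 7.45 over 10.21 to 11.19. The medians were 3 log2 units apart or more, but the lowest larval array lay below the highest adult array. Among the adult ages its median was lowest in 6-day females, at 9.12, and highest in newly eclosed females, at 10.63. FBtr0163392 had higher medians at later stages. Its median was 12.35 in first instar larvae, 13.80 in early pupae and 14.50 in late pupae, then 9.99 in newly eclosed females. FBtr0167307 was likewise higher in pupae than in larvae, with a median of 13.16 in larvae, 14.48 in pupae and 9.88 in adults. FBtr0162513 had a median of 12.06 in larvae, 13.15 in pupae and 9.33 in adults, the lowest adult level of these 4.

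Every larval and pupal array lay above every adult array for 4 of the 100 transcripts and for 6 of all 14528, 0.0413%. The 4 are FBtr0162560, FBtr0169785, FBtr0169451 and FBtr0162735, which were picked out after their values were seen. None of the 4 transcripts with the largest margins is among them. Without replicate 4 of newly eclosed Las Bocas females on agria, the count was 13 of the 100 and 21 of all, 0.145%. Without the 13 arrays nearer another stage it was 20 of the 100 and 32 of all, 0.22%. Because the margin was computed from the same arrays, nothing is read from these shares.

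The highest larval or pupal mean did not lie at the same stage for the whole set, though some transcripts nearly tied between stages. FBtr0171895 had means of 13.74 in first instar larvae and 13.69 in early pupae. FBtr0171983 had 13.10 and 13.14. Their SDs within larval and pupal groups were 0.53 and 0.50, so the classes below are a description and not distinct kinds. Early pupae held the highest stage mean for 38 transcripts, first instar larvae for 32, late pupae for 19, larvae of the third instar for 6 and second instar larvae for 5. The lowest of the larval and pupal means was in second instar larvae for 51 transcripts and in late pupae for 31. Among all transcripts the highest of these 5 stage means lay in late pupae for 4842 and in first instar larvae for 4324, and in early pupae for 2433. The 19 late pupal transcripts ran from a median of 12.70 in first instar larvae over 13.68 in early pupae to 14.39 in late pupae. They then had a median of 10.29 in newly eclosed females. The 32 first instar transcripts were flatter, with a median of 12.97 in first instar larvae, 12.38 in the second instar, 12.79 in early pupae and 12.32 in late pupae. The 38 early pupal transcripts ran from 12.83 in first instar larvae to 13.05 in early pupae.

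The first instar class is headed by FBtr0162748, with a median of 14.07 in first instar larvae, 13.36 in late pupae and 10.68 in newly eclosed females. The class of the third instar is headed by FBtr0161025, with a median of 13.90 in larvae of the third instar and 11.65 in newly eclosed females, and no stage from first instar to late pupa had a median under 13.48. FBtr0161025 is therefore a transcript of nearly constant larval and pupal level that was lower in adults. FBtr0162622 heads the second instar class, FBtr0162513 the early pupal class and FBtr0163392 the late pupal class.

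From egg to first instar all 100 transcripts had a higher mean, by a median of 2.16 on the log2 scale, against 0.05 over all transcripts. From first to second instar 80 of the 100 were lower, by a median of -0.55 over the set. In Las Bocas on agria the mean over the 100 instead went up, from 12.28 to 12.66. It went down from 13.23 to 12.54 in Las Bocas on organ pipe. In Punta Prieta it went down from 13.05 to 12.49 on agria and from 13.27 to 12.55 on organ pipe. The arrays nearer another stage include first and second instar arrays of Las Bocas on agria. From the second to the third instar 79 of the 100 were higher, by a median of 0.30. From the third instar to early pupae 81 were higher, with a median difference of 0.32. From early to late pupae 74 were lower, with a median of -0.28 over the set. From late pupae to newly eclosed females all 100 were lower, by a median of -2.29 and between -4.68 and -1.68, where all transcripts had a median of 0.19. The lower level in newly eclosed females is built into the margin. The egg step is not part of the margin, but the same larval arrays enter both.

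Within adults the set was not flat. The highest adult mean was in 18-day females for 50 transcripts and in newly eclosed females for 46. The lowest was in 6-day females for 78 of them and in 24-day females for 12. From 0 to 3 days 97 transcripts were lower, by a median of -0.29, and from 3 to 6 days 91 were lower, by a median of -0.17. From 6 to 10 days 98 were higher, by a median of 0.36. From 10 to 14 days 97 were lower, from 14 to 18 days 97 were higher, and from 18 to 24 days 99 were lower, with medians of -0.15, 0.29 and -0.32. After quantile normalization was repeated over all arrays, the highest adult mean was at 18 days for 56 transcripts and at 0 days for 40, and the lowest at 6 days for 80.

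These adult differences moved with the spread of the arrays. The median array SD was 1.68 in newly eclosed and 18-day females, where the set was highest, and 1.72 in 6-day females, where it was lowest. At all 7 adult ages in the margin the array with the highest mean over the 100 transcripts also had the lowest SD of its age, and over the 13 stages this held in 10. The array with the lowest mean had the highest SD of its stage in 9 of the 13. Replicate 4 of newly eclosed Las Bocas females on agria had a mean of 12.17 and an SD of 1.48, against means of 10.40, 10.42 and 10.86 in the other replicates of its group. The part of array spread in the adult course was not tested.

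**Figure D2:**
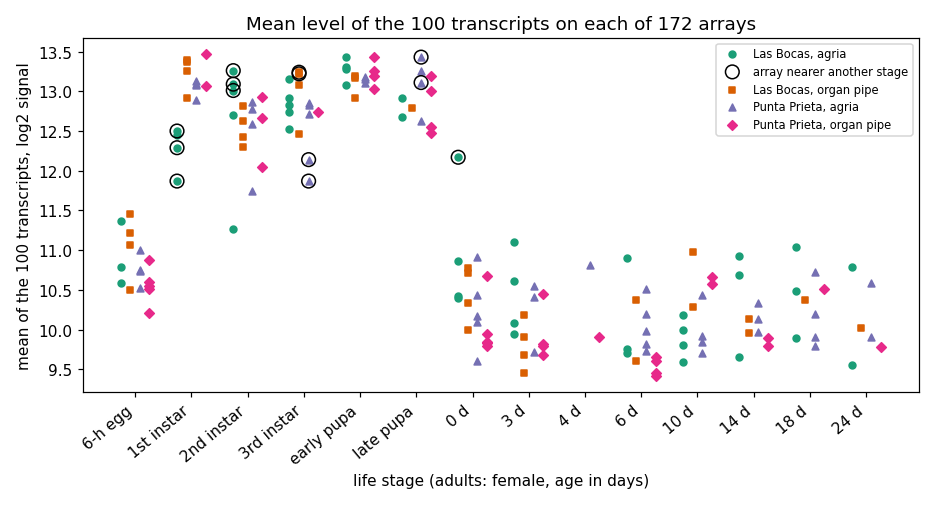
Mean log2 level of the 100 transcripts on each array, by stage, with arrays nearer another stage marked. Larval and pupal arrays lie between 11.27 and 13.47, adult arrays between 9.42 and 12.17, and the highest adult array is replicate 4 of newly eclosed Las Bocas females on agria.

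**Figure D3:**
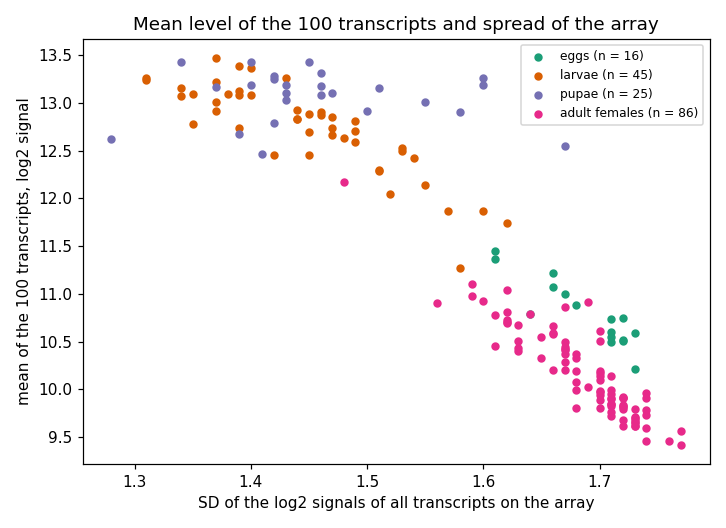
Mean log2 level of the 100 transcripts on each array against the SD over all transcripts of that array, with the 4-day females among the adults. Larval and pupal arrays have SDs from 1.28 to 1.67 and adult arrays from 1.48 to 1.77, and within each adult age the array of highest mean has the lowest SD.

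The 4 combinations of population and diet were each examined alone. All 100 transcripts had a margin above 0 in each of the 4. In Punta Prieta on agria all 100 had a margin of at least 1, against 8.43% of all transcripts, with a median of 1.66. The late pupal arrays of that series include 2 nearer another stage. In Punta Prieta on organ pipe 90 did, against 2.77% of all, with a median of 1.55. In Las Bocas on organ pipe 93 did, against 3.19% of all, with a median of 1.51. In Las Bocas on agria 67 did, against 1.38% of all, with a median of 1.13. The share over all transcripts was thus also highest in Punta Prieta on agria and lowest in Las Bocas on agria. The values of Las Bocas on agria depend on 1 array. Without replicate 4 of its newly eclosed females, 94 of the 100 had a margin of at least 1, against 3.00% of all. Their median was then 1.45. Each of these series also entered the overall margin.

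The eggs and the 4-day females did not enter the margin. In eggs all 100 transcripts lay below their lowest larval or pupal mean, by a median of 1.54 and by 0.16 to 2.87, and 89 of them by at least 1. The egg mean lay above the highest adult mean for 90 and below it for 10, with a median difference of 0.26 and quartiles of 0.12 and 0.43. For 91 transcripts the egg mean was nearer the highest adult mean than the lowest larval or pupal mean. Both distances use a group mean that chose the transcripts, so they are given as a description. Over the set the stage mean was 10.82 in eggs, and among the adult ages it ran from 9.93 at 6 days to 10.42 at 0 days. For most of the set eggs thus sat close to the highest adult mean, not to every adult mean. Of the 100, 9 transcripts lay at least 1 log2 unit above their highest adult mean.

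FBtr0162622 was the highest of those, with an egg mean 2.05 above its highest adult mean. In eggs it ranged from 11.92 over a median of 12.23 to 12.90, so that all 16 egg arrays lay above the highest adult array at 11.19. FBtr0162560 followed at 1.98, with egg values from 10.31 over 10.94 to 12.28, against 8.21 over 9.11 to 9.56 in newly eclosed females. At the other end FBtr0169785 lay 0.89 below its highest adult mean, a difference of -0.89. Its egg mean of 10.31 lay below its means at 0 and 3 days, 11.20 and 10.54. From 6 to 24 days its means were lower than in eggs, at 9.96 to 10.17. Its eggs ranged from 9.86 over 10.31 to 10.88 and its newly eclosed females from 10.24 over 11.22 to 12.21. FBtr0169451 had a difference of -0.57. The 19 late pupal transcripts had a median egg difference of 0.07 and the 32 first instar transcripts one of 0.38.

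**Figure D4:**
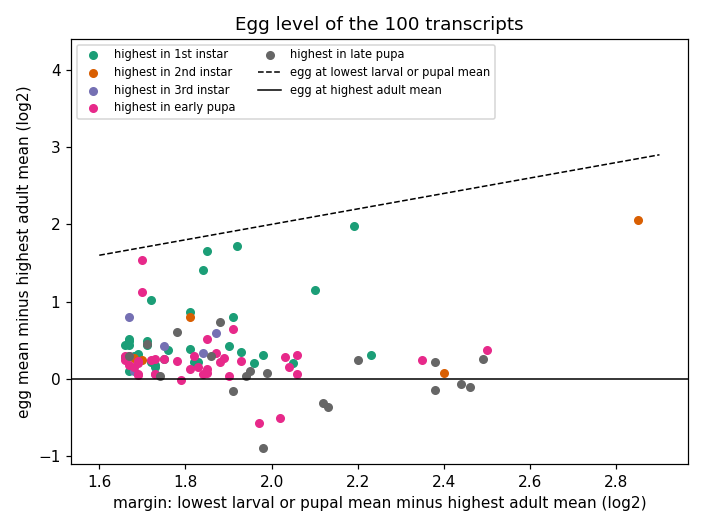
Egg mean minus highest adult mean for each of the 100 transcripts, on the log2 scale, against the margin, coloured by the stage of the highest larval or pupal mean. The solid line marks the highest adult mean and the dashed line the lowest larval or pupal mean. Of the points, 90 lie above 0 and 9 at 1 or more, with FBtr0162622 the highest at 2.05.

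The 4-day females, all from Punta Prieta, were measured on 1 array for each diet. The mean over the 100 transcripts was 10.81 on the agria array and 9.91 on the organ pipe array. All 100 transcripts lay below their lowest larval or pupal mean on both arrays. On the organ pipe array all 100 also lay below their highest adult mean, while on the agria array 10 did. The array SD was 1.62 on agria and 1.71 on organ pipe. With 1 array for each diet there is no replicate check of that difference.

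Replicates of a group differed widely for these transcripts. The SD within groups had a median over the set of 0.58 in adults, against 0.27 over all transcripts, of which 96.41% lay below the set's median. In larvae it was 0.60 against 0.38, in pupae 0.58 against 0.47 and in eggs 0.40 against 0.25. Within larvae and pupae FBtr0172097 varied most among the 100, with an SD of 0.86, then FBtr0174566 with 0.84. FBtr0167353 varied least, with an SD of 0.28, then FBtr0170598 with 0.37. FBtr0167353 and FBtr0168558 had the highest adult levels of the set. Deviations from the group means went together: the correlation between transcripts had a median of 0.53 over 4950 pairs and ran from -0.47 to 0.99. The arrays are shared by every pair, and so is the array spread described above.

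Diet was compared as organ pipe minus agria, averaged over the stages of a phase, in 1 limma model over all 14528 transcripts, and a transcript was called at a Benjamini-Hochberg adjusted p under 0.05. In larvae 1 of the 100 was called, against 688 of all transcripts, 4.74%. It is FBtr0162735, which was lower on organ pipe, a direction called for 3.88% of all, by -0.51 on the log2 scale (SE 0.161, limma adjusted p = 0.0478). Its larval level was 12.36 ± 0.89 on agria (SD, n = 27) and 11.99 ± 0.98 on organ pipe (SD, n = 18), so the groups overlapped widely. In Punta Prieta it was 12.68 ± 1.00 on agria (SD, n = 13) and 11.67 ± 0.69 on organ pipe (SD, n = 6), while in Las Bocas it was 12.06 ± 0.68 (SD, n = 14) and 12.15 ± 1.08 (SD, n = 12), the opposite order. The call was lost without replicate 1, 2, 3 or 4, with estimates of -0.58 to -0.44 and limma adjusted p from 0.11 to 0.145. With only stages of at least 2 arrays in each group, the estimate was 0.01 (limma adjusted p = 0.989). With the spread taken from larval arrays alone, its SE was 0.235 and the call was lost (limma adjusted p = 0.287). The set as a whole leaned the other way, with 90 of the 100 estimates above 0 and a median of 0.30, against 0.03 over all transcripts. The transcripts share arrays and varied together within groups, so counts of estimates above 0, here and below, carry no test. An unadjusted p under 0.05 was found for 18 of the 100 and for 26.8% of all. The array SD in larvae was 1.46 ± 0.08 on agria (n = 27) and 1.43 ± 0.07 on organ pipe (n = 18), and with it as a covariate the median was 0.09. Here and below, this covariate was not planned beforehand, and the SD is taken over all transcripts, the 100 included. The part of array spread in these medians was not tested.

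In adults none of the 100 was called for diet by limma, against 267 of all, 1.84%, and 1 of the 100 had an unadjusted p under 0.05, against 12.5% of all. The median was -0.15, with 6 estimates above 0, and it was -0.08 with the array SD as a covariate. In pupae none was called, against 61 of all, 0.42%, with a median of -0.10 and 5 unadjusted p under 0.05, against 12.8% of all. In eggs limma called none in the set or over all transcripts, 0%, and none of the 100 had an unadjusted p under 0.05, against 152 of all. The difference between the diet effect in larvae and pupae and that in adults was tested directly. None of the 100 was called, against 94 of all, 0.647%, with a median of 0.28 and 8 unadjusted p under 0.05, against 15.8% of all.

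Population was compared as Punta Prieta minus Las Bocas. In adults 2 of the 100 were called, against 2190 of all transcripts, 15.1%. Both were lower in Punta Prieta, a direction called for 5.73% of all. FBtr0162670 differed by -0.46 (SE 0.146, limma adjusted p = 0.0216), with 10.61 ± 0.71 in Las Bocas (SD, n = 39) and 10.11 ± 0.44 in Punta Prieta (SD, n = 45). FBtr0165513 differed by -0.37 (SE 0.127, limma adjusted p = 0.0341), with 10.65 ± 0.68 and 10.21 ± 0.50. The median over the set was -0.19, with 8 estimates above 0. After quantile normalization was repeated over all arrays, the estimates were -0.39 for FBtr0162670 and -0.32 for FBtr0165513, with limma adjusted p of 0.0706 and 0.093. Without replicate 2 they were -0.37 and -0.31, with limma adjusted p of 0.244 and 0.238, and FBtr0165513 was also not called without replicate 3 or replicate 4. Las Bocas adults had a mean array SD of 1.67 and Punta Prieta adults one of 1.70, and with that SD as a covariate the median was -0.08. FBtr0162670 was then at -0.28 (limma adjusted p = 0.018) and FBtr0165513 at -0.25 (limma adjusted p = 0.0668).

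In larvae 1 of the 100 was called for population, against 797 of all, 5.49%. FBtr0164470 was higher in Punta Prieta, a direction called for 2.47% of all, by 0.58 (SE 0.149, limma adjusted p = 0.00694), with 12.10 ± 0.33 (SD, n = 19) against 11.49 ± 0.60 in Las Bocas (SD, n = 26). Its estimate was 0.55 without replicate 2 and 0.47 without replicate 3, and the call was lost in both, with limma adjusted p of 0.0966 and 0.0982. On agria FBtr0164470 was at 12.17 ± 0.31 in Punta Prieta larvae (SD, n = 13) and 11.25 ± 0.56 in Las Bocas larvae (SD, n = 14). On organ pipe it was at 11.95 ± 0.34 (SD, n = 6) and 11.76 ± 0.54 (SD, n = 12), a smaller difference. Its interaction between diet and population in larvae, -0.66, was not called. The larval median over the set was -0.01. In pupae none was called, against 215 of all, 1.48%, with 2 unadjusted p under 0.05, against 2324 of all, and a median of 0.07. In eggs none was called, against 711 of all, 4.89%, with 5 unadjusted p under 0.05, against 15.5% of all. The egg median was -0.33 and 1 estimate of the 100 was above 0. Las Bocas eggs had a mean array SD of 1.66 ± 0.04 (n = 7) and Punta Prieta eggs 1.71 ± 0.02 (n = 9), and with it as a covariate the median was -0.11. For the population effect in larvae and pupae minus that in adults, none was called by limma, against 670 of all, 4.61%, with 8 unadjusted p under 0.05, against 18.6% of all. The median over the set was 0.24, with 92 estimates above 0.

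The interaction between diet and population in larvae was the comparison in which most of the 100 were called. It is the organ pipe minus agria difference of Punta Prieta less the same difference of Las Bocas. Of the 100, 7 were called, all with a negative value, against 30 of all transcripts, 0.206%, of which 28 were negative, 0.193%. The median over the set was 0.02 and 59 of the 100 estimates were above 0. The SEs that follow pool the spread within groups over the arrays of all phases, adults included. FBtr0174566 had a value of -2.09 (SE 0.387, limma adjusted p = 0.00225) and FBtr0172097 one of -1.94 (SE 0.385, limma adjusted p = 0.00558). The other 5, FBtr0162513, FBtr0167307, FBtr0174483, FBtr0163392 and FBtr0163371, had values from -1.77 to -1.34 and are named because the count is small, after their values were seen.

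Of these 7, 6 had their highest stage mean in late pupae and 1 in early pupae. They had margins of 1.91 to 2.50, and 5 of them ranked among the 8 largest margins. Their deviations within groups were correlated at a median of 0.76, so they are not 7 separate observations. In second instar larvae of Las Bocas, the mean over the 7 was 12.22 ± 0.43 on agria (SD, n = 5) and 13.50 ± 0.37 on organ pipe (SD, n = 4). In second instar larvae of Punta Prieta it was 13.85 ± 0.44 on agria (SD, n = 4) and 12.67 ± 0.92 on organ pipe (SD, n = 3). The order of the diets was opposite in the populations, and in Punta Prieta the groups overlapped. In larvae of the third instar of Punta Prieta it was 14.08 ± 0.26 on agria (SD, n = 5) and 11.79 on the 1 organ pipe array, while Las Bocas had 12.54 ± 0.40 on agria (SD, n = 5) and 12.31 ± 0.40 on organ pipe (SD, n = 4).

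First instar larvae of Las Bocas on agria were split. The array of replicate 1 had a mean of 14.21 over the 7, the highest of its group, and the lowest array of the group had 10.81. For FBtr0174566 the 4 values of that group were 14.36, 10.72, 10.43 and 11.03, and on organ pipe they were 13.95, 14.38, 12.78 and 11.75. In first instar larvae of Punta Prieta its values were 12.06, 10.88, 11.10 and 11.30 on agria and 12.33 and 12.03 on organ pipe. In first instar larvae of both populations most organ pipe arrays thus lay above most agria arrays. In the second instar its 5 Las Bocas agria values were 12.24, 12.53, 12.36, 10.84 and 11.42, all below the organ pipe values of 14.22, 13.93, 13.33 and 13.76. In Punta Prieta second instar larvae it had 14.59, 13.58, 13.85 and 13.92 on agria and 11.89, 13.71 and 12.08 on organ pipe. In the third instar all 5 Punta Prieta agria values lay between 13.97 and 14.55, and the organ pipe array had 11.50.

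FBtr0172097 followed the same groups. Its second instar values were 13.79, 13.87, 12.90, 12.18 and 11.29 in Las Bocas on agria, below 14.57, 14.62, 13.98 and 14.39 on organ pipe. In Punta Prieta they were 15.01, 14.20, 14.32 and 13.75 on agria and 12.42, 14.15 and 12.61 on organ pipe, which overlapped. In larvae of the third instar of Punta Prieta the agria values ran from 14.15 to 14.85 and the organ pipe array had 11.58.

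With the spread taken from larval arrays alone, limma called none of the 100 and none of all transcripts. FBtr0174566, with the same estimate, then had an SE of 0.526 and a limma adjusted p of 0.694. FBtr0172097, also with the same estimate, had an SE of 0.59. The SEs pooled over all phases, 0.387 and 0.385, thus understated the larval spread of both transcripts. Even with pooled SEs, both calls were lost without replicate 2, with estimates of -2.20 for FBtr0174566 and -2.04 for FBtr0172097. Without replicate 3 the call of FBtr0172097 was lost, with an estimate of -1.85. Without the third instar, where Punta Prieta on organ pipe has 1 array, none was called in the set or over all either. The estimates were about as large there, at -2.04 for FBtr0174566 (SE 0.442, limma adjusted p = 0.0857) and -1.91 for FBtr0172097 (SE 0.439, limma adjusted p = 0.104). Without the 13 arrays nearer another stage, 8 of the 100 were called, against 27 of all, 0.186%. In pupae none was called for the interaction by limma, against 334 of all, 2.3%, with 1 unadjusted p under 0.05, against 19.2% of all. In adults none was called in the set or over all transcripts, 0%, with no unadjusted p under 0.05 in the set and 631 over all.

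**Figure D5:**
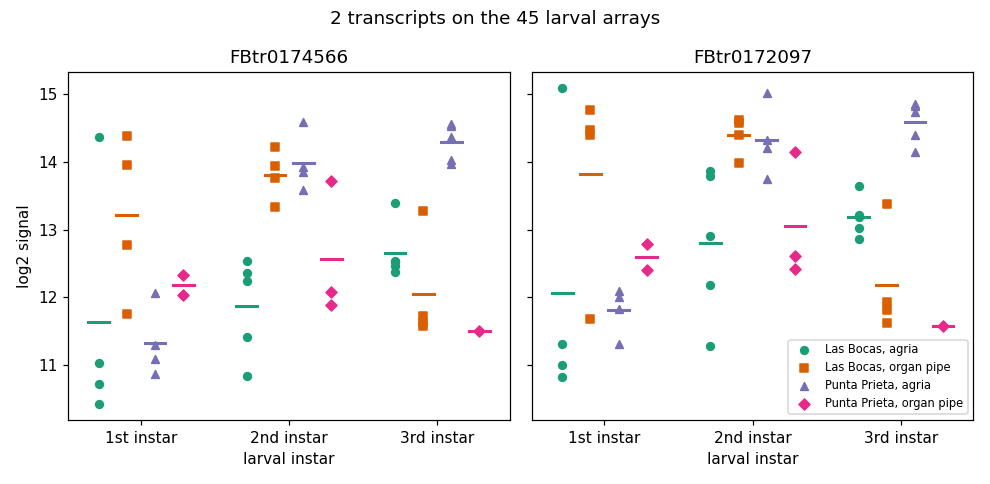
Log2 levels of FBtr0174566 and FBtr0172097 on each larval array, by instar, population and diet, with a bar at the mean of each group. In second instar larvae organ pipe arrays lie above agria arrays in Las Bocas, while in Punta Prieta most lie below, and the third instar of Punta Prieta on organ pipe is 1 array, at 11.50 and 11.58.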

How the data were processed

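Per the submitters' processing notes, the deposited log2 values, 1 for each transcript on each array, are the output of RMA as run by the authors. The sources used here name neither its version and software nor the arrays it was run over. The log2 values ran from 7.25 to 15.93, no 2 arrays were identical and every column was mapped to a sample by its label. Replicate 1 of the 14-day females from Las Bocas on agria has a life-stage label of 10 days and was kept at 14 days. The labels give no slide, and no scanner files were used, so precision rests on the number of arrays.

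The members and lists were chosen with earlier results of these data known. Stage means weigh the 4 combinations of population and diet equally. Tests used lmFit and eBayes of limma 3.58.1, run under R 4.3.3, with a mean for each of 54 groups, 118 residual degrees of freedom, 13 contrasts and Benjamini-Hochberg adjustment over 14528 transcripts in each. The 4-day arrays entered the fit only. The script was tested on simulated data. Descriptions were computed in Python 3.11.15.

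Transcripts were named by rule: the 4 largest and 2 smallest margins and the 2 just outside; in each contrast the 2 most positive and 2 most negative calls; the largest margin for each stage of highest mean; the 2 highest and 2 lowest egg differences; the 2 largest and 2 smallest SDs; and the 2 highest adult levels. Of the array identifiers, 0 matched the table of 15130 genes, so no gene list and no marker list was run. Alternatives changed the scaling, the arrays, the estimate of spread and the contrasts.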

Additional observations from a re-analysis of the deposited data

Results flagged for a closer look

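Among the 28 groups of at least 4 arrays, 2 had an array flagged as far from its group in the mean over the 100 transcripts. Second instar larvae of Las Bocas on agria, replicate 1, had 11.27, the lowest of 5 arrays. Newly eclosed Punta Prieta females on organ pipe, replicate 5, had 10.67. Replicate 4 of newly eclosed Las Bocas females on agria, at 12.17 against 10.40, 10.42 and 10.86, was not flagged. The flags thus do not mark every array that stands apart. Chance flags about 1 group in 20.

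For the 2 transcripts with the most negative larval interaction, the 9 larval groups of at least 4 arrays were examined for each. There were 5 such values, in 4 groups. FBtr0174566 was at 14.36 in first instar larvae of Las Bocas on agria, replicate 1, at 13.39 in larvae of the third instar of Las Bocas on agria, replicate 1, and at 13.28 in larvae of the third instar of Las Bocas on organ pipe, replicate 1. FBtr0172097 was at 15.09 in first instar larvae of Las Bocas on agria, replicate 1, and at 11.68 in first instar larvae of Las Bocas on organ pipe, replicate 4. The first of these arrays is also among the 13 nearer another stage.

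The diet effect in larvae differed between the populations for 7 of the 100 transcripts, tested as an interaction in limma, against 30 of all transcripts, 0.206%. None was called when larval arrays alone gave the spread, or with stages of at least 2 arrays in each group.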

How the results depend on the processing

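The set itself kept 80 to 95 of its 100 transcripts when replicates 1 to 5 were left out in turn. It kept 85 when quantile normalization was repeated, 94 when arrays were centred on their medians and 82 without the 13 arrays nearer another stage. Without late pupae in the margin it kept 24. The remaining numbers are members called, with the main count first. A share of all transcripts called under the same setting follows where counts were largest. Counts printed without a share carry no comparison with all transcripts. For diet in larvae, 1 became 4 with array weights (23.4% of all), 3 of them higher, so that the direction of most calls reversed. It became 0 with the spread of larval arrays alone, 0 with stages of at least 2 arrays, 0 without the 13 arrays, 0 with array SD as a covariate, and 0 to 1 without single replicates. FBtr0162735 itself stayed lower on organ pipe with array weights, at -0.36, but went from -0.51 to 0.0069 with stages of at least 2 arrays. For diet in pupae, 0 became 1 with the SD covariate and 0 to 5 without single replicates. For population in eggs, 0 became 18 with array weights (23.9% of all), 4 with the spread of eggs alone (6.75% of all), 1 without the 13 arrays and 0 to 2 without single replicates. For population in larvae, 1 became 7 with array weights (4 lower, 20.7% of all). It became 5 with the SD covariate (3 lower, 9.51% of all). The direction of most calls thus reversed, but FBtr0164470 stayed higher in Punta Prieta, at 0.59 and 0.54. The count became 2 with stages of at least 2 arrays and 2 without the 13 arrays. It was 2 with the replicate number as a block and 0 to 5 without single replicates. For population in pupae, 0 became 1 with the SD covariate and 0 to 2 without single replicates. For population in adults, 2 became 0 with repeated quantile normalization, 44 with array weights (42 lower; 39.8% of all), 4 with the spread of adults alone (29.6% of all), 4 with stages of at least 2 arrays, 1 with the SD covariate and 0 to 2 without single replicates. For the interaction in larvae, 7 became 17 with array weights (4.45% of all), 0 with the spread of larval arrays alone, 0 with stages of at least 2 arrays, 9 with the replicate block (0.227% of all) and 1 to 7 without single replicates. For the interaction in pupae, 0 became 2 with array weights (17.6% of all) and 0 to 1 without single replicates. For diet in larvae and pupae minus adults, 0 became 0 to 1 without single replicates. For population in larvae and pupae minus adults, 0 became 5 with array weights (15.8% of all), 2 without the 13 arrays and 0 to 3 without single replicates. The cause of these changes was not tested. The array-weight estimation did not converge, so its counts are of limited use. Replicate numbers did not pair the samples: deviations of same-numbered arrays had a median correlation of 0.000536 over 194 pairs, and those of differently numbered arrays 0.00357 over 619 pairs. In 177 further pairs of a result and an alternative, a count stayed within 1.5 times the main count or a value within its replicate spread. For single called transcripts, 66 refits kept the call and its direction and 23 lost the call. No background signal was used, so how dim transcripts relate to background is unknown.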

Other observations

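Some of the transcripts have neighbouring identifiers. Of the 100, 12 fall into 8 pairs whose identifier numbers differ by at most 3. Within groups these pairs were correlated at 0.61 to 0.99, with a median of 0.91, against a median of 0.53 over all 4950 pairs, and 5 of the 8 pairs share the stage of their highest mean. FBtr0169339, FBtr0169341 and FBtr0169342, all highest in late pupae, had correlations of 0.978 to 0.985 with each other. FBtr0171718 was correlated with FBtr0169341 at 0.982, the closest pair without neighbouring identifiers. These pairs were chosen after their values were seen, share all arrays and carry no test, and whether they share sequence or probes was not tested.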
